A study of Mus musculus with 12 samples.

Results

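The genes described here encode the machinery that fuses synaptic vesicles with the nerve terminal membrane and the scaffold of the active zone, the patch of membrane where fusion occurs. They are a list of 41 genes given by name, with no threshold on a value but drawn up with earlier results of these data known, and were looked up by symbol in the table of gene tests from the spinal cord RNA-seq. Of the 41, 39 were listed at a site or both, 38 above the lesion and 36 below it, and 35 at both sites, out of 13957 distinct symbols in the table (13645 above and 12337 below). SYT11 and NAPB were listed at neither site, SYN1, SV2B and ERC1 were listed only above the lesion, and SYN2 only below. A gene that is not listed has no value here, which says nothing about whether it was expressed.

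All 12 libraries came from male mice that express human ApoE4, were 4 months old, received a contusion of the spinal cord at thoracic level 9 and were studied at 14 days. The 4 groups of 3 libraries were ApoE4 synj1+/+ above the lesion, ApoE4 synj1+/- above the lesion, ApoE4 synj1+/+ below the lesion and ApoE4 synj1+/- below the lesion, where synj1+/- mice carry 1 inactive allele of synaptojanin 1 in every cell and synj1+/+ mice carry normal alleles only. Each library was made from a short piece of whole cord next to the lesion, so neurons, glia, vessels and infiltrating cells are mixed. Every group carried ApoE4 and every group was injured, and neither ApoE3 nor uninjured cord was analysed here.

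In a nerve terminal, the vesicle SNARE protein synaptobrevin (VAMP) pairs with syntaxin and SNAP25 on the plasma membrane, and the zippering of this complex drives fusion. Synaptotagmins sense calcium, complexins hold the assembled complex ready, and UNC13 and CADPS proteins prime docked vesicles. RIM, bassoon, piccolo and ERC proteins tether vesicles near calcium channels, synapsins cluster the reserve pool, and NSF with its SNAP adaptors takes the used SNARE complexes apart. Synaptojanin 1, the phosphatase that the genotype targets, acts on the other limb of the cycle, the recovery of vesicle membrane by endocytosis. The comparison asks whether transcripts of the release side differ between the genotypes in injured ApoE4 cord.

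The table holds 1 value per gene and group, pooled over its libraries by the authors, as FPKM (fragments per transcript length and per sequenced fragment, upper quartile scaled) with an offset of 1. Levels below are FPKM with the offset taken off. Ratios are log2 of the value labelled synj1+/- over the value labelled synj1+/+ within a site, so a positive ratio means a higher value in the group labelled synj1+/-. A gene was counted as higher or lower from 1.2-fold on, a log2 ratio of 0.263. With pooled values there is no spread between libraries, so no difference here was tested, and counts are read only against the share of all listed genes that passed the same fold. In whole tissue, fewer cells of a type and less RNA per cell cannot be told apart.

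SYNJ1 itself went against its labels. Above the lesion it stood at 1904 FPKM under the synj1+/+ label and at 2403 under the synj1+/- label, and below it at 1846 and 2592, so every direction given here is that of the labels. Whether the group names in the table are exchanged, or the inactive allele still gives transcript, was not tested, and an exchange would turn the sign of every ratio. Neuron marker transcripts were present at both sites, with NEFL at 678 and 655 FPKM above and 764 and 869.8 below, and 13 of 15 neuron markers were listed above and 11 below. Per the study's methods, all libraries of a site were thinned to the same number of reads. Where a pair of levels is given from here on, the value labelled synj1+/+ comes first and the value labelled synj1+/- second.

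Below the lesion, most release genes had a higher value in the group labelled synj1+/-. Of the 36 members listed there, 24 were at least 1.2-fold higher, where 12.6% of all listed genes were, and 1 was at least 1.2-fold lower (SYN3), where 14.9% of all genes were. All members had a mean above 10 FPKM, and among all genes at that level or over, 11.7% were higher and 12.5% lower by that fold. In any amount, 33 of 36 were higher, against 52.8% of all genes. The median log2 ratio of the members was 0.29 with quartiles of 0.24 and 0.34, and that of all 12337 genes was 0.01 with quartiles of -0.15 and 0.16. Summed over the members, FPKM came to 17729.8 under the synj1+/+ label and to 22083 under the synj1+/- label, or 24.6% more.

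Above the lesion the same genes differed little between the labelled genotypes. Only SYNPR was at least 1.2-fold higher among the 38 listed members, where 6.63% of all listed genes were, and UNC13C and ERC2 were at least 1.2-fold lower, where 10.5% of all genes were. Among genes with a mean of 10 FPKM or more, the shares were 5.33% higher and 8.63% lower. The median log2 ratio was 0.04 with quartiles of -0.04 and 0.12, beside 0.00 for all 13645 genes, and 24 of 38 were higher in any amount, against 49.0% of all genes. Summed FPKM was 18401 and 19809, or 7.65% more in the group labelled synj1+/-.

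**Figure D1:**
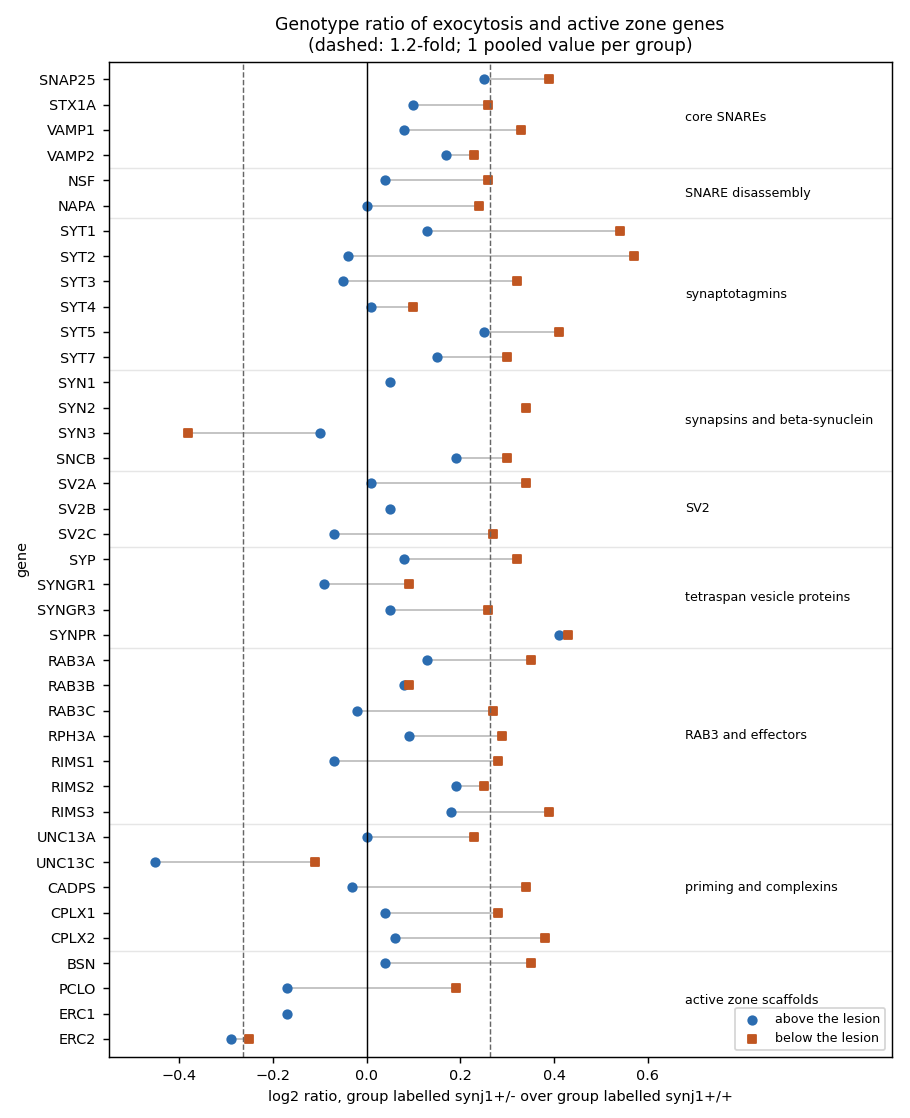
Log2 ratio (horizontal axis) of each listed gene, grouped by role, with circles for the ratio above the lesion and squares for the ratio below; grey lines join the 2 sites and dashed lines mark 1.2-fold. Below the lesion 24 of 36 genes were at least 1.2-fold higher, whereas above it 1 of 38 was. Ratios are drawn rounded, so NSF and SYNGR3, at 0.26 below, appear just left of the upper dashed line. SYN3, UNC13C and ERC2 lie left of 0 at both sites.

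Since so many members differed in 1 direction below the lesion, the sequence just before their transcription starts was read from the RefSeq promoter table of GRCm38.p6, which holds 300 bases per start (250 before and 50 after) and matched 33 of the 41 members with 43 windows. In these and in all 32851 windows, 4 motifs were searched on both strands: TTCAGCACC and GGACAGCGC, the left and right parts of the element bound by the neuronal repressor REST, TGACGTCA, the cyclic AMP response element, and GCGCATGCG, the element of NRF1. No motif matched over another one in these windows. Few members held any: TTCAGCACC was in SYN1 and UNC13A, 2 of 43 member windows against 0.371% of all windows, and GGACAGCGC was in UNC13A, against 0.405%. In UNC13A both lie after the start. TGACGTCA was in SYN1 and NAPA (1.79% of all windows), and GCGCATGCG was in BSN and SYN1 (1.75% of all windows). The 2 windows with a match wholly before the start are shown, 250 bases each up to the base before the start, with every match in capitals. SYN1 (chrX:20920919-20921168, minus strand) holds GCGCATGCG on the reverse strand, TTCAGCACC and TGACGTCA, which begin 250, 232 and 159 bases before the start. BSN (chr9:108190384-108190633, minus strand) holds GCGCATGCG on both strands, overlapping by all but 1 base, from 148 and again from 17 bases before the start.
SYN1: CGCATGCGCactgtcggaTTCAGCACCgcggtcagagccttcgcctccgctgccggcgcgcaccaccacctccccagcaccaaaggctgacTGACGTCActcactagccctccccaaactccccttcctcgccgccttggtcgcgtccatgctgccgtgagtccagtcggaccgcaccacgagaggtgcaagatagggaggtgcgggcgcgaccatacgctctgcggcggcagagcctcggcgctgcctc
BSN: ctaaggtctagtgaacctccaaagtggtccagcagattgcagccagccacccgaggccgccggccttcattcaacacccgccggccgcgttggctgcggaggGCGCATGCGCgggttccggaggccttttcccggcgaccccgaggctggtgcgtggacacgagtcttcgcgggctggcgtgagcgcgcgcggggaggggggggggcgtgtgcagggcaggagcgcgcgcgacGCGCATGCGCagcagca
These matches describe the letters in the windows and do not show that a factor binds there. The other members with a window held none of the 4 motifs. Of the genes with a match, only BSN was at least 1.2-fold higher below the lesion, and SYN1 was not listed there. SNAP25, SYT5, SYT7 and SYNGR3 were higher by that fold but had no window. Among the genes with a window that were higher below, no motif was common. Only exact matches were counted, so variants of the motifs were not searched.

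Among the core SNARE genes, SNAP25, the palmitoylated SNARE of the plasma membrane, was the most abundant of all members. It had an FPKM of 5238 under the synj1+/+ label and 6247 under the synj1+/- label above the lesion, and of 5271 and 6928 below. That placed it 13th and 9th by level among all genes above the lesion and 10th and 5th below, and its log2 ratio was 0.25 above and 0.39 below. VAMP1, the synaptobrevin that predominates in spinal cord and brainstem, stood at 886 and 939 above and at 998 and 1254 below, with ratios of 0.08 and 0.33. VAMP2, the forebrain type, was lower in level and differed less below the lesion, with 189 and 213 above and 165 and 194 below (log2 ratios of 0.17 and 0.23). STX1A, a plasma membrane syntaxin, had 61.7 and 66.2 above and 43.6 and 52.5 below, and its ratio of 0.26 below fell just short of 1.2-fold. All 4 SNARE genes were thus higher in the group labelled synj1+/- at both sites, but only SNAP25 and VAMP1, below the lesion, by 1.2-fold.

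The enzymes that recycle the SNAREs had nearly equal levels in both groups above the lesion and higher ones under the synj1+/- label below. NSF, the ATPase, had 119.8 and 123 FPKM above and 117 and 140.3 below, with ratios of 0.04 and 0.26. Its ratio below and that of SYNGR3 were the closest past 1.2-fold, at 20.0% and 20.1% more. Also near that fold below the lesion were SV2C (20.4% more), RAB3C (20.9%) and RIMS1 (21.0%). NAPA, the adaptor alpha-SNAP that many cell types use, had 691 and 689 above and 669.9 and 792 below, with ratios of 0.00 and 0.24.

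The synaptotagmins held the largest ratios below the lesion. SYT2, the fast calcium sensor typical of hindbrain and spinal synapses and of motor nerve terminals, had an FPKM of 417 under the synj1+/+ label and 404 under the synj1+/- label above the lesion, but 364 and 539 below. Its log2 ratio of 0.57 was the highest of all members at that site, while the ratio above was -0.04. SYT1, the forebrain counterpart that most neurons share, had 483 and 529 above and 331 and 480.0 below, with ratios of 0.13 and 0.54. Under the synj1+/+ label both sensors were listed lower below than above, whereas under the synj1+/- label only SYT1 was, although the sites were normalized separately. SYT5 (25.3 and 33.9 FPKM), SYT3 (286 and 358) and SYT7 (409.8 and 505), the last a slow sensor with a role in asynchronous release and vesicle replenishment, were also past 1.2-fold below the lesion, with ratios of 0.41, 0.32 and 0.30. SYT4, which does not act as a calcium sensor for fast release, had 75.8 and 81.1 and a ratio of 0.10. Above the lesion the ratios of these 6 genes ran from -0.05 to 0.25, and none reached 1.2-fold.

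Synapsins, which coat vesicles and hold the reserve pool, held the only member at least 1.2-fold lower below the lesion. SYN2 had 193 and 245 FPKM below and a ratio of 0.34, whereas SYN3, a synapsin mostly known from development, had 371 and 284 and a ratio of -0.38. Above the lesion SYN3 had 287 and 267 with a ratio of -0.10, and SYN1, the classical marker of terminals, had 165 and 170.0 with a ratio of 0.05. The level of SYN3 is uncertain, because the gene TIMP3 lies wholly inside SYN3 on the opposite strand and shares 1733 exon bases with it, 14.1% of the exon bases of SYN3 in the GENCODE annotation of GRCm38. The library kit named in the labels does not mark strand, so reads from the shared bases cannot be assigned to either gene. TIMP3, which encodes an inhibitor of matrix proteases, had 47.8 and 39.2 FPKM below the lesion with a ratio of -0.28, and 38.0 and 37.0 above with a ratio of -0.03. Its part in the SYN3 value was not tested. SNCB, which encodes the terminal protein beta-synuclein, had 478 and 546 above and 488 and 599.6 below, with ratios of 0.19 and 0.30.

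Vesicle membrane proteins of unknown or modulatory function followed the majority. SV2A, the vesicle glycoprotein that binds levetiracetam, had 113 and 114 FPKM above and 94.5 and 119.9 below, with ratios of 0.01 and 0.34. SV2C had 76.9 and 73.3 above and 69.8 and 84.3 below, with ratios of -0.07 and 0.27, and SV2B, listed only above, had 119 and 124. Among the tetraspan proteins, SYP (synaptophysin), an abundant vesicle protein that binds synaptobrevin, had 389.7 and 413 above and 357 and 447 below, with ratios of 0.08 and 0.32. SYNPR (synaptoporin) had nearly equal ratios at the sites, 0.41 and 0.43, with 25.1 and 33.7 above and 19.7 and 26.9 below. It was the only member past 1.2-fold at both sites, where 1.79% of the 12025 genes listed at both were. SYNGR3 had ratios of 0.05 and 0.26, and SYNGR1, a synaptogyrin found in many cell types, had ratios of -0.09 and 0.09.

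RAB3 and its partners on the way to the active zone were nearly all higher below the lesion. RAB3A, the main GTPase of synaptic vesicles, had 1553 and 1696 FPKM above and 1555 and 1981 below, with ratios of 0.13 and 0.35. RAB3C had 138 and 135 above and 100.3 and 121 below, with ratios of -0.02 and 0.27. RAB3B, the least abundant of the RAB3 members, had ratios of 0.08 and 0.09. RPH3A (rabphilin), a RAB3 effector, had 671 and 715 above and 759.8 and 930.3 below, with ratios of 0.09 and 0.29. Of the RIM scaffolds, RIMS2 was by far the most abundant, with 920.1 and 1053 above and 780.4 and 928 below, and its ratio hardly differed between the sites (0.19 and 0.25). RIMS1, on the other hand, had a ratio of -0.07 above and 0.28 below, at 102 and 96.4 FPKM and at 85.8 and 104. RIMS3 had ratios of 0.18 and 0.39 at levels between 34.2 and 54.8 FPKM.

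Priming factors split by paralog. UNC13A, the principal primer of central synapses, had 264 and 263 FPKM above and 223 and 262 below, with ratios of 0.00 and 0.23. UNC13C, the paralog best known from cerebellum, had 82.8 and 60.4 above and 69.3 and 64.2 below, and its ratios of -0.45 and -0.11 made it the lowest member above the lesion. CADPS, the priming factor also used by dense core vesicles, was the second most abundant member. Its FPKM was 2123 and 2076 above and 2044 and 2588 below, with ratios of -0.03 and 0.34. The complexins were like CADPS, with ratios of 0.04 and 0.28 for CPLX1 (531 and 646 FPKM below) and of 0.06 and 0.38 for CPLX2 (201 and 261 below).

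The active zone scaffolds were the only role group with a lower summed FPKM in the group labelled synj1+/- at both sites, 669 and 566 above and 514 and 466 below. This sum rests on ERC2, an active zone protein that binds RIM and bassoon, which had 452 and 369.5 above and 414 and 348 below, with ratios of -0.29 and -0.25. ERC1, its widely expressed relative, had 89.2 and 79.1 above with a ratio of -0.17 and was not listed below. The giant scaffolds differed from ERC2 below the lesion, where BSN (bassoon) had 26.7 and 34.4 with a ratio of 0.35, and PCLO (piccolo) had 73.6 and 84.2 with a ratio of 0.19. Above the lesion their ratios were 0.04 and -0.17.

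**Figure D2:**
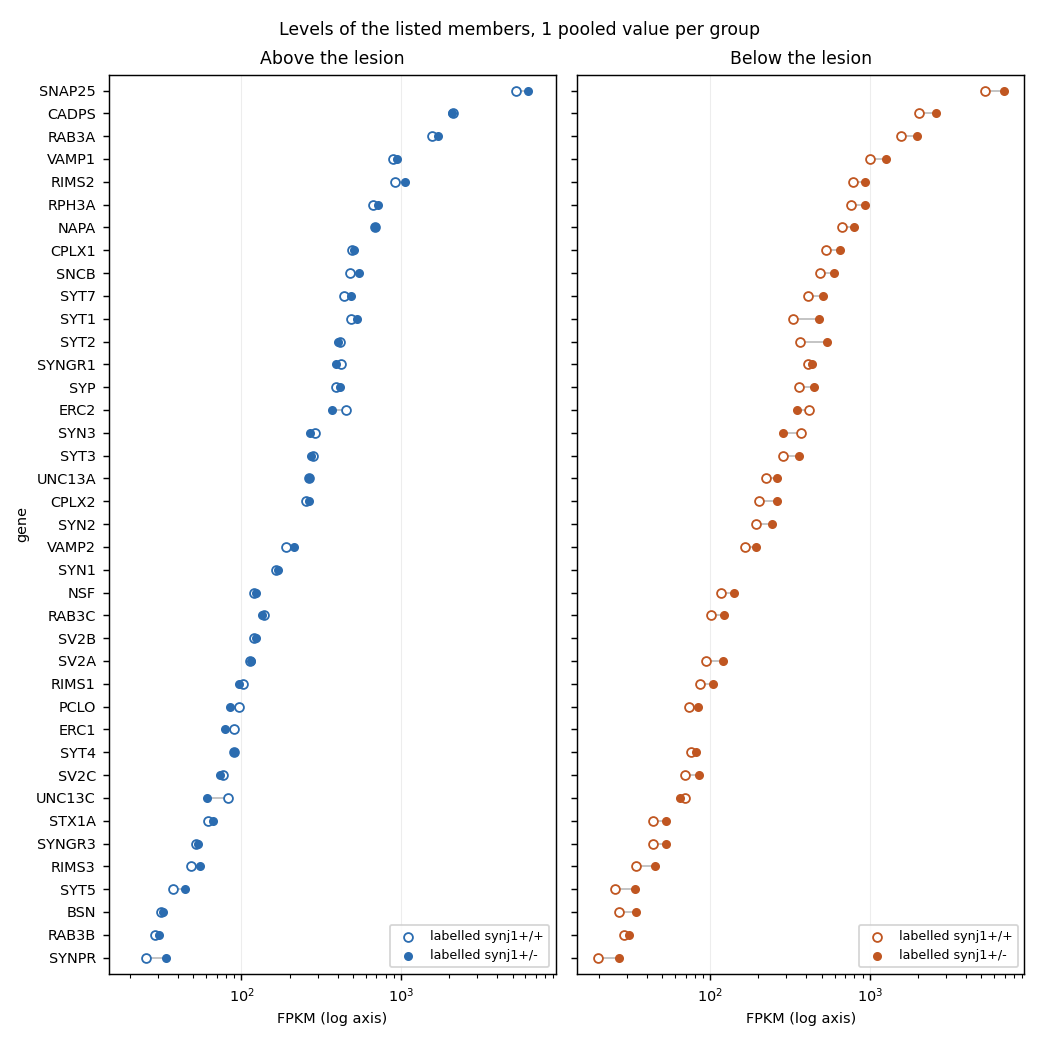
FPKM of each listed gene on a log axis above (left) and below (right) the lesion, with open circles for the group labelled synj1+/+ and filled circles for the group labelled synj1+/-, in order of mean level. Levels run from 19.7 FPKM for SYNPR to 6928 for SNAP25, and below the lesion the filled circle lies to the right for 33 of 36 genes.

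The ratio was also set beside the level. Below the lesion, 7 of 9 members with a mean of 500 FPKM or more, 10 of 15 with 100 to under 500 and 7 of 12 under 100 were at least 1.2-fold higher, where 13.5%, 11.3% and 12.9% of all genes in these bands were. The median ratios of the members in these bands were 0.30, 0.30 and 0.27 below the lesion and 0.13, 0.02 and 0.04 above it, from the highest level to the lowest. Spearman's rho of ratio and level was 0.10 over the 36 members below and 0.10 over the 38 above, given as a description of genes that share the same libraries.

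Within families, the share that each paralog took of the summed FPKM was compared, since such a share does not depend on how the groups were scaled. VAMP1 took 82.4% of the VAMP1 and VAMP2 sum under the synj1+/+ label and 81.5% under the synj1+/- label above the lesion, and 85.8% and 86.6% below. The pair of fast sensors was evenly divided, with SYT2 at 46.3% and 43.3% above and 52.4% and 52.9% below. RAB3A took between 90.3% and 92.9% of the RAB3 members and RIMS2 between 86.0% and 87.4% of the RIM members in the 4 groups. RAB3D and RIMS4, which were listed but are not members, were left out of these sums. Shares of CPLX1 were 66.0% and 65.7% above and 72.6% and 71.2% below. The labelled genotype thus moved none of these shares by more than 3.04 percentage points, the value for SYT1 and SYT2 above. In the synapsins it moved them by 12.1 points below the lesion, where SYN2 took 34.2% and 46.3% of the SYN2 and SYN3 sum. This value carries the uncertainty of SYN3 with TIMP3 and, over fewer shared bases, that of SYN2 with TIMP4.

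**Figure D3:**
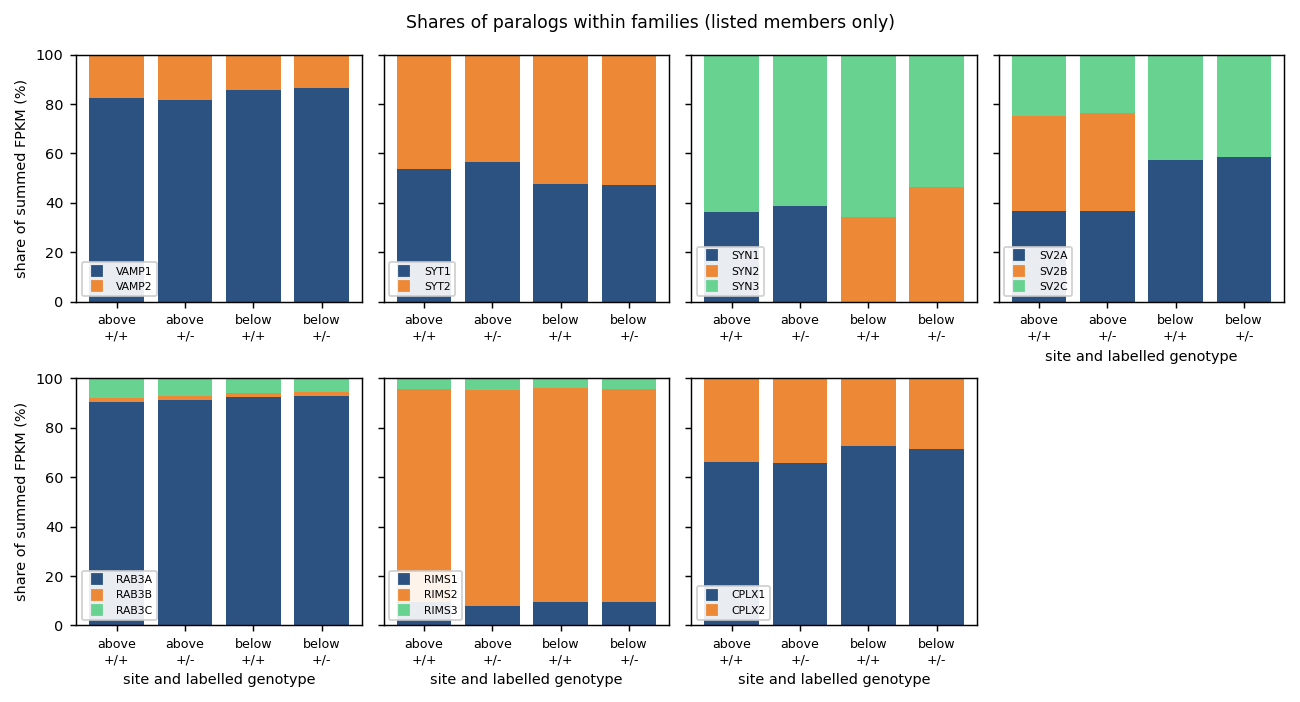
Share of each listed paralog (%, stacked bars from 0 to 100) in the summed FPKM of the listed members of its family, for the labelled genotypes above and below the lesion. Only the synapsins below the lesion differ by more than 3.04 points between the labelled genotypes; SYN1 and SV2B have no bar below and SYN2 none above because they were not listed there, so those shares are not comparable between sites.

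The ratio below the lesion exceeded that above for 34 of the 35 members listed at both sites, where it did for 53.9% of the 12025 genes listed at both. SYN3 was the exception (-0.29), 1.2-fold the other way, as 13.3% of all genes were. The median difference in log2 ratio was 0.22, beside 0.02 for all genes, and for 12 members the ratio below was at least 1.2-fold the ratio above, against 14.6% of all genes. The differences were widest for SYT2 (0.61), SYT1 (0.40), SYT3 (0.37) and CADPS (0.37) and narrowest for RAB3B (0.01), SYNPR (0.02), ERC2 (0.04), RIMS2 (0.05) and VAMP2 (0.06). By direction, 22 of the 35 were higher in the group labelled synj1+/- at both sites (31.3% of all genes), 10 were lower above and higher below (22.0% of all genes), and 3 were lower at both (29.1% of all genes): ERC2, SYN3 and UNC13C. None was higher above and lower below, as 17.6% of all genes were. Across members, Spearman's rho between the ratios at the sites was 0.52 over 35 genes, beside 0.30 over all 12025. The labels do not tie libraries above and below to mice. The study's methods count 3 mice per genotype for sequencing, with segments taken on both sides of the lesion, so the sites may share mice and the ratios at the sites may not be independent.

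**Figure D4:**
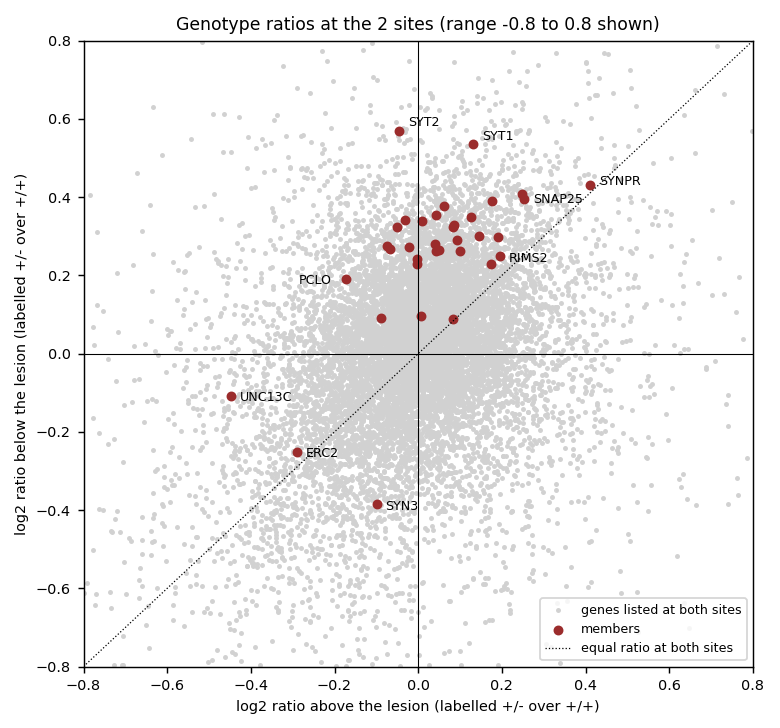
Log2 ratio below the lesion against log2 ratio above for genes listed at both sites (grey) and for members (red), with the dotted line at equal ratios and the view limited to -0.8 to 0.8. Of the 35 members, 34 lie above the dotted line, SYT2 and SYT1 farthest up, and SYN3 alone lies below it.

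Levels at the sites were normalized separately, so they are only set side by side. In the group labelled synj1+/+, the median log2 ratio of the value below over the value above was -0.19 for the 35 members, of which 9 had the higher value below (49.8% of all genes), and 0.00 for all genes. In the group labelled synj1+/-, it was 0.09 for the members, 21 of which had the higher value below (55.5% of all genes), and 0.02 for all genes. These values share the libraries of the genotype ratios and are no separate evidence.

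Other genes of the release pathway, from a list of 47 that shares none of the members, gave a mixed picture. Below the lesion 37 were listed, of which 9 were at least 1.2-fold higher and 2 lower (12.6% and 14.9% of all genes), and their median log2 ratio was 0.12. Highest were PPFIA3, an active zone liprin, with 106 and 164 FPKM and a ratio of 0.62, SYT10 at only 3.90 and 6.11 (0.54), and DOC2A, a calcium sensor for spontaneous release, with 133 and 191 (0.51). Lowest were RAB3D (11.8 and 7.94 FPKM, ratio -0.52) and SNAP23 (84.9 and 61.2, -0.46), both known mostly from secretion outside neurons, and SYT12 (11.8 and 10.1, -0.20). Above the lesion 44 were listed, with 3 higher and 3 lower (6.63% and 10.5% of all genes) and a median of 0.08. The highest there were CACNA1B, a presynaptic calcium channel (0.30), SYT16 (0.30) and DOC2A (0.27), and the lowest were STXBP5L (-0.74), SYT10 (-0.35) and UNC13B (-0.28). DOC2A was thus among the highest at both sites, and SYT10 was among the lowest above and the highest below.

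Markers of whole cell types were set beside the members. Neuron markers were also higher below the lesion in the group labelled synj1+/-, but by less: all 11 listed had a ratio above 0, from 0.06 to 0.36, with a median of 0.16. Of these, 1 of 11, INA, was past 1.2-fold, where 12.6% of all listed genes were. The summed FPKM of the neuron markers was 10570.3 and 11465 below, or 8.47% more, beside 24.6% more for the release genes. These sums are weighted to single abundant genes. The largest part of the neuron sum was MEG3 (4692 and 4888), whose ratio of 0.06 was the lowest of that list. The largest part of the release sum was SNAP25 (5271 and 6928, ratio 0.39). Above the lesion, 13 markers had a median ratio of 0.02. Taken relative to the median of the neuron markers, the median ratio of the members was 0.13 below the lesion and 0.02 above, and 3 of 36 members were at least 1.2-fold higher below in place of 24, where 3.67% of all listed genes were on the same scale in place of 12.6%. The difference between the sites was then 0.08 in place of 0.22. The markers behind this centring were not the same at the sites, since RBFOX3 and ELAVL4 were listed only above. Over the 11 neuron markers listed at both sites, the median difference in ratio was itself 0.17, beside 0.22 for the members.

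Markers of non-neuronal cells were mostly lower in the group labelled synj1+/- where the release genes were higher. Below the lesion all 8 listed microglia and macrophage markers and all 6 fibroblast markers were at least 1.2-fold lower, where 14.9% of all listed genes were. Microglia and macrophage markers had a median ratio of -0.72 and summed FPKM of 2518 and 1399. Fibroblast markers had a median of -2.86 and summed FPKM of 417 and 98.5. Astrocyte markers had a median of -0.18, 1 of 7 with a ratio above 0, and summed FPKM of 17559 and 14039. The 2 listed oligodendrocyte markers had a median of 0.04 (10569.9 and 9953 summed), the 4 endothelial markers -0.14 (124 and 109), the 3 Schwann cell markers -0.54 (1039.9 and 883) and the 4 erythroid markers 0.32 (625 and 818). Above the lesion, where the members hardly differed, the medians were -0.42 for microglia and macrophage markers (1584 and 1119 summed), -0.50 for fibroblast markers (89.6 and 73.6), -0.26 for astrocyte markers (19266 and 16082), -0.12 for 2 oligodendrocyte markers (11196 and 10799), 0.07 for endothelial markers (88.1 and 92.6), -0.15 for the 1 listed Schwann cell marker (925 and 831) and 2.21 for erythroid markers (246 and 1122). Most of the fibroblast sum above was PDGFRA (62.6 and 57.3), and the other fibroblast markers lay between 0.728 and 9.60 FPKM there. At such levels the offset of 1 draws ratios toward 0, so the fibroblast medians at the sites are not on equal terms. No marker list was at 0, and the part of these cells in the values of the release genes was not tested.

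**Figure D5:**
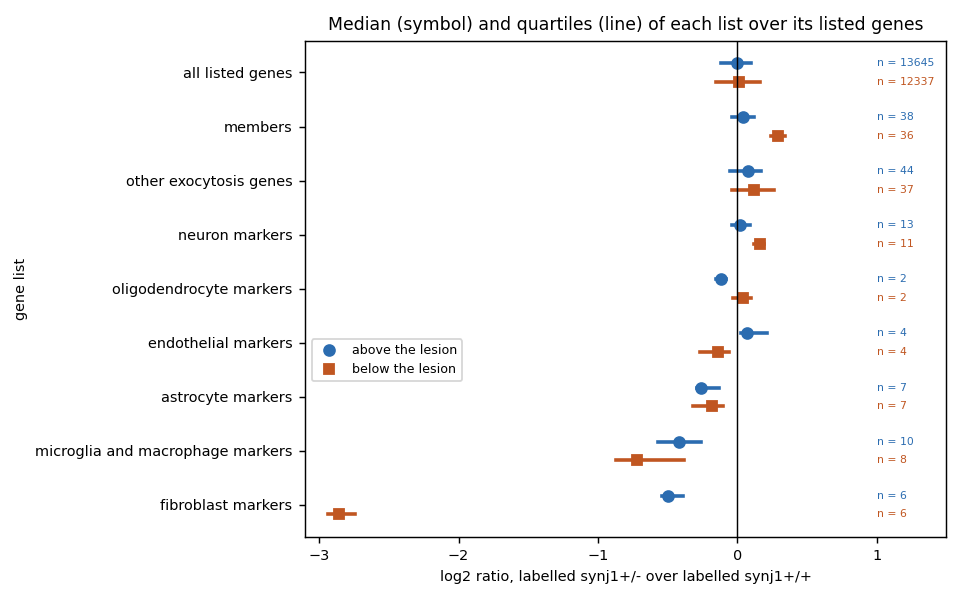
Median (symbols) and quartiles (lines) of the log2 ratio over the listed genes of each list, with circles above and squares below the lesion and the number of listed genes at the right. Members have a median of 0.29 below the lesion beside 0.16 for neuron markers and 0.12 for other release genes, while microglia and macrophage (-0.72) and fibroblast markers (-2.86) lie on the other side of 0.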

How the data were processed

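Total RNA from cord segments was sequenced in 12 libraries, 3 per group. Per the study's methods and the submitters' processing notes, reads were thinned at random to the smallest library of each site, aligned with STAR 2.5.4b to mouse GRCm38.p6 and summarized with Cuffdiff 1.3.0 under upper quartile normalization. The authors deposited 1 FPKM value per gene and group, pooled over libraries, with no column of single samples; the lowest value is exactly 1, which was read as an offset of 1. Only gene tests with status Ok are listed, and the header does not name the unit. The deposited fold changes, p-values and q-values, and a shorter list that holds nothing else, are the authors' own comparisons and were not used.

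Of 25985 gene tests, 3 repeats of a symbol at a site were dropped, keeping the higher mean. Log2 ratios were taken on deposited values and described by counts and medians over the list beside all genes, at 1.2-fold; no test was possible with pooled values, since the spread between libraries is not in the table. The calculations were tested on simulated data. Groups came from the genotype and site in the labels. Named were all members, SYNJ1, the 3 other release genes at each end of the ratios per site with at least 1 FPKM, and a few markers. INA, MEG3, PDGFRA, RIMS4, TIMP3 and the other overlapping genes were named after their values were seen. The members and lists were chosen with earlier results of these data known. Alternatives were the ratio on FPKM without the offset, a minimum mean of 10 FPKM, centring on all genes or neuron markers, other folds, fewer members and the mean. Gene positions and overlaps came from the GENCODE annotation of GRCm38. Python 3.11.15, numpy 2.4.6, pandas 2.3.3 and matplotlib 3.10.9 were used.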

Additional observations from a re-analysis of the deposited data

How the results depend on the processing

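With 1 pooled value per group, leaving out each replicate could not be run, and no error belongs to any ratio. No paired analysis was possible because the groups share no replicate numbers and the table has no columns of single samples. Of 46 values recomputed for the members, 33 stayed within 1.5 times of the reported value, 13 moved and 0 changed sign. Centring on the median of the neuron markers moved the median log2 ratio to 0.02 above and 0.13 below, the median difference between the sites to 0.08, the members higher below to 3 and the members lower below to 3 (3.67% and 30.5% of all genes). Centring on the median of all genes moved the members lower below to 2 and left 19 higher (15.9% and 11.3% of all genes). At 1.1-fold, 8 members were higher and 4 lower above the lesion (19.1% and 23.0% of all genes), and 30 were higher and 2 lower below (27.5% and 26.1%). At 1.5-fold, 0 members were higher or lower at either site, where 0.791% and 1.93% of all genes were above and 1.16% and 4.38% below. All 66 paralog shares kept their value within 0.200 percentage points with the offset left in.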
